A study of Mus musculus with 12 samples.

Results

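CXC chemokine ligands are small secreted proteins, with the exception of CXCL16, which is made as a membrane-bound molecule and shed. The group examined here comprised the 8 genes *Cxcl1*, *Cxcl2*, *Cxcl9*, *Cxcl10*, *Cxcl12*, *Cxcl13*, *Cxcl14* and *Cxcl16*, chosen by gene symbol among the 55401 mouse genes counted. Bulk RNA of microglia sorted as CD45int CD11b+ cells from the brain of male mice was sequenced in 12 libraries, 3 in each of 4 groups named WT-Sham, WT-tFCI, miKO-Sham and miKO-tFCI. All mice carried *Hdac3* alleles flanked by loxP sites (HDAC3 loxp/loxp), WT mice without Cre (CX3CR1 wt/wt) and miKO mice with CreER in place of 1 copy of *Cx3cr1* (CX3CR1 CreER/wt), so that the knockout groups also lack that copy. The deletion was induced with tamoxifen for 5 days at 6 to 8 weeks of age, and surgery followed at least 1 month later. tFCI is transient focal cerebral ischemia by occlusion of the middle cerebral artery for 60 min, Sham mice had the same anesthesia and exposure of the arteries without occlusion, and microglia were isolated on day 3 after tFCI. Whether WT mice also received tamoxifen is not stated in the sources used here, and each library combined cells from 3 to 4 hemispheres.

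CXC ligands act on G protein-coupled receptors and fall into functional classes. CXCL1 and CXCL2 engage CXCR2 and attract neutrophils, CXCL9 and CXCL10 engage CXCR3 on activated T and NK cells and are classical interferon-induced products, CXCL12 engages CXCR4 and is scavenged by ACKR3, CXCL13 attracts B cells through CXCR5, and CXCL16 engages CXCR6. In the injured brain, activated microglia are a known source of CXCL2 and CXCL10, whereas CXCL12 is known as a product of vessels and stromal cells.

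Depth was even across the libraries, with 7697864 to 9452222 counts on genes. The level of the targeted gene *Hdac3* in CPM was 35.0, 44.0 and 46.4 in the Sham libraries of WT against 25.8, 25.0 and 20.9 in those of miKO, and after tFCI 54.0, 52.9 and 43.9 against 36.0, 27.1 and 28.9, where CPM is the count as a share of the TMM-scaled total of its library. Of the 10 microglial markers, 0 were absent, and *Csf1r* was among the most abundant. Their summed level in CPM was 27788 to 37573 for WT-Sham, 26838 to 32269 for miKO-Sham, 18696 to 20969 for WT-tFCI and 9916 to 19868 for miKO-tFCI. WT-Sham replicate 1 stood apart in 8 neutrophil markers, which summed to 815 CPM against 77.8 and 49.4 CPM in the other WT-Sham libraries. miKO-Sham replicates 1 and 2 lay closest together of all replicate pairs (chi-square 2.82 per degree of freedom against 3.65 to 76.6), which is more than sampling noise, and both were kept. The names of their deposited tables share a sample tag that no other table carries, and whether they are separate pools of cells was not tested. Without either of them *Cxcl2*, *Cxcl10* and *Cxcl16* stayed called in miKO-Sham vs. WT-Sham and in the interaction. Since these are bulk samples, fewer cells of a type and less RNA per cell cannot be told apart. The labels place replicate 1 of every group in batch 1 and replicates 2 and 3 in batch 2, without saying what the batch was. The close pair of miKO-Sham is thus split between the batches. In WT-Sham, WT-tFCI and miKO-tFCI the closest pair was replicates 2 and 3 (5.10, 3.65 and 12.9), against 40.8 for that pair in miKO-Sham. Values given within a batch rest on these labels, and whether the labels of miKO-Sham hold was not tested.

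The genes *Cxcl1*, *Cxcl2*, *Cxcl9*, *Cxcl10* and *Cxcl13* lie on chromosome 5 of GRCm38. *Cxcl1* (ENSMUSG00000029380.11, 90891241 to 90893115) and *Cxcl2* (ENSMUSG00000058427.10, 90903871 to 90905938) are neighbours on the plus strand, *Cxcl9* (ENSMUSG00000029417.9, 92321347 to 92328079) and *Cxcl10* (ENSMUSG00000034855.13, 92346638 to 92348889) are neighbours on the minus strand, and *Cxcl13* (ENSMUSG00000023078.6) starts at 95956951. *Cxcl12* (ENSMUSG00000061353.11) lies on chromosome 6 from 117168535 to 117181367, *Cxcl14* (ENSMUSG00000021508.11) on chromosome 13 from 56288643 to 56296551, and *Cxcl16* (ENSMUSG00000018920.11) on chromosome 11 from 70453983 to 70459984. *Cxcl10* shares 133 exon bases (5.91% of its exons) with *Art3* on the other strand, and *Cxcl16* shares 552 (18.3%) with *Zmynd15*. RefSeq promoter windows (GRCm38.p6) were matched for 7 of the 8 genes. Of these genes, *Cxcl1*, *Cxcl2*, *Cxcl10* and *Cxcl12* rose after tFCI in WT microglia and differed between the genotypes in Sham, after tFCI or both. The window of *Cxcl12* held no match to the NF-kB motif given below and is not shown. Those of *Cxcl1*, *Cxcl2* and *Cxcl10* held such a match and are shown. They are written 5′ to 3′ on the strand of the gene and end before its first annotated exon, at chr5:90890995-90891240, chr5:90903649-90903870 and chr5:92348890-92349139. Capitals mark matches to the NF-kB motif (GGGA and TTCC with any 2 bases between) or to the interferon-stimulated response element (ISRE, GAAA and GAAA with any 2 bases between) on either strand.
Cxcl1: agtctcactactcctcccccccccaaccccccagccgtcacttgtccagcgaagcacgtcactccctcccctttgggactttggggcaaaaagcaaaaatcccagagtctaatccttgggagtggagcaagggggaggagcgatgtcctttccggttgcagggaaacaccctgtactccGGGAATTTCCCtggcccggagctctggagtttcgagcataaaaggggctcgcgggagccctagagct
Cxcl2: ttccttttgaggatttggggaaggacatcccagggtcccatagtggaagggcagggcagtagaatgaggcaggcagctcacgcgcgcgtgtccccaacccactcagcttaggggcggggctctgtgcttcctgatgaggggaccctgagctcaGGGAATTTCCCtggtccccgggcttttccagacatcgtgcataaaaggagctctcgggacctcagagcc
Cxcl10: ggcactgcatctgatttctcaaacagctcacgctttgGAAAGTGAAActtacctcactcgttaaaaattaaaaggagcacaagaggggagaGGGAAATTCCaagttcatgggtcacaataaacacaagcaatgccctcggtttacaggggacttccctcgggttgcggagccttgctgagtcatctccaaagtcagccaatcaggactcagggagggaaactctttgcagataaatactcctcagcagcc

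The NF-kB motif was found 71 and 70 bases before the RefSeq start of *Cxcl1* and 97 and 96 bases before that of *Cxcl2*, in both cases as a pair of matches on opposite strands that overlap. Both genes hold the same letters there, GGGAATTTCC on the plus strand of the gene. In *Cxcl10* the NF-kB match GGGAAATTCC began 159 bases and the ISRE match GAAAGTGAAA 213 bases before the start. Of 32851 RefSeq windows of 250 bases before a start, 1.21% held the NF-kB motif and 2.98% the ISRE. An AP-1 motif (TGANTCA, 6.75% of windows), not in capitals, was found among the 7 windows in that of *Cxcl10* alone, 74 bases before the start. Among the other ligands, *Cxcl14* held an ISRE match (GAAACAGAAA, 172 bases before the start), and *Cxcl9*, *Cxcl12* and *Cxcl13* held neither motif in this window. A match is a description of the letters and not a bound site.

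**Figure D1:**
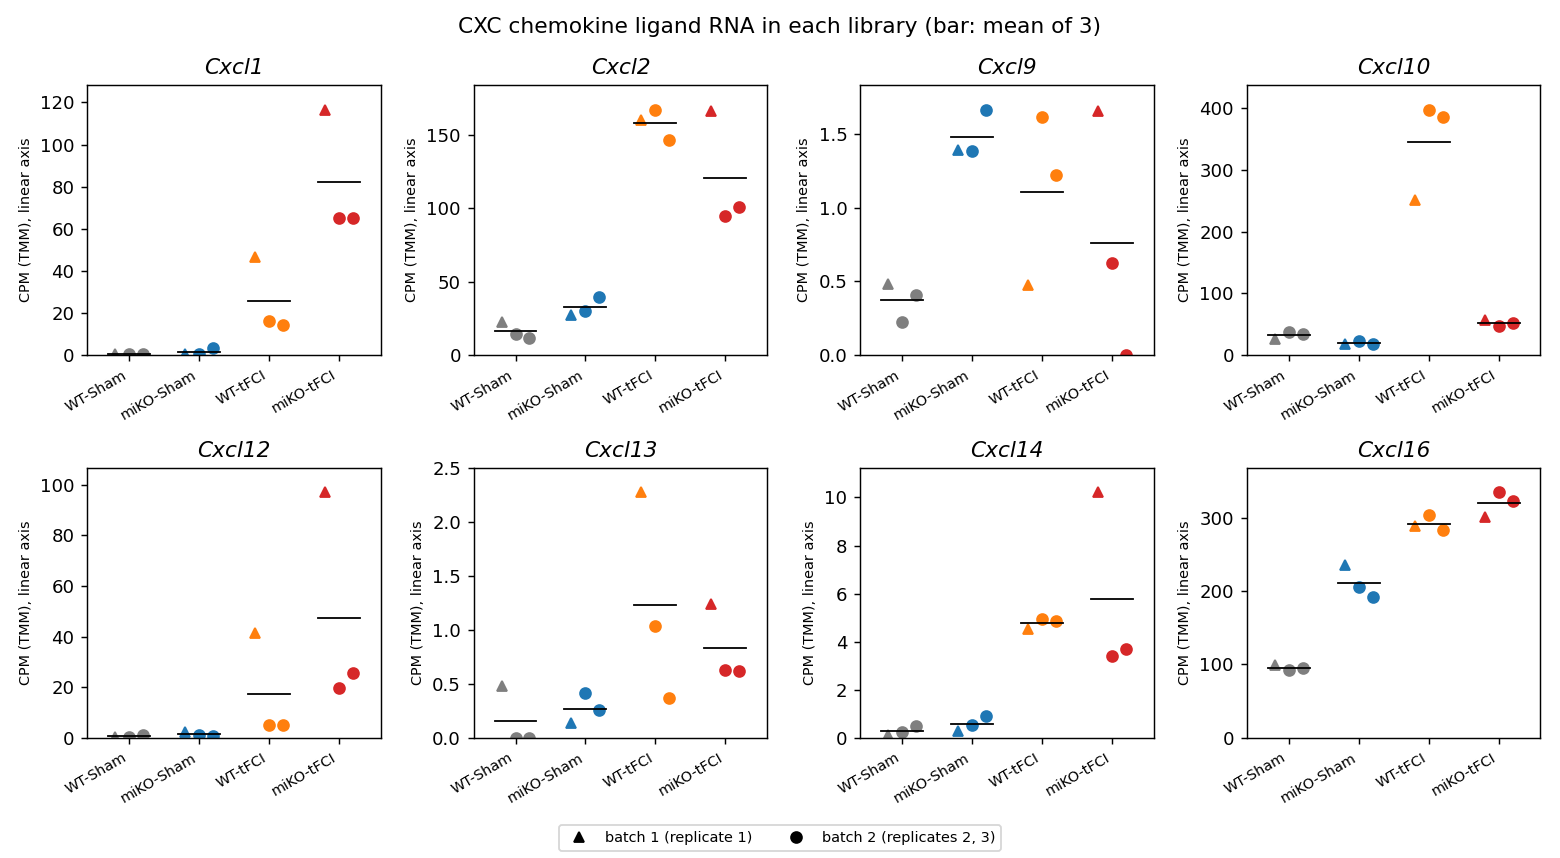
Level of the 8 CXC ligands in each library, in CPM on a linear axis that starts at 0, by group; triangles are batch 1, circles batch 2 and the bar is the mean of 3 libraries. *Cxcl10* stands at 251.0 to 397 CPM in WT-tFCI and at 48.0 to 57.7 CPM in miKO-tFCI, whereas the highest libraries of *Cxcl1* and *Cxcl12* are those of miKO-tFCI.

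After tFCI in WT microglia, 6 of the 7 ligands that passed the filter on low counts rose, by 3.07-fold for *Cxcl16* to 41.9-fold for *Cxcl1*. Calls required an edgeR adjusted p (Benjamini-Hochberg, BH) below 0.05 together with a log2 fold change beyond 0.58 in either direction, and SE is the standard error of that log2 fold change. Of all 16451 genes tested, 32.6% were called, 20.9% as higher and 11.7% as lower, and the median log2 fold change was 3.37 over the 7 ligands against 0.02 over all genes. The groups did not overlap for 6 of 7 ligands, against 49.8% of all genes. *Cxcl9* was not called, and *Cxcl13*, with 0 to 19 counts per library, was not tested.

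*Cxcl1* was nearly silent in WT-Sham, at 0.841, 0.448 and 0.410 CPM, and reached 46.8, 16.4 and 14.5 CPM in WT-tFCI. All WT-tFCI libraries lay above all WT-Sham libraries, and replicate 1 of WT-tFCI was the highest. The log2 fold change was 5.39 (SE 0.51, edgeR adjusted p = 1.69e-06), from 4 to 7 counts per library in WT-Sham. *Cxcl2*, its neighbour, which engages the same receptor, was already present in WT-Sham at 22.4, 14.5 and 12.0 CPM. In WT-tFCI it stood at 159.8, 167 and 146 CPM, a log2 fold change of 3.31 (SE 0.23, edgeR adjusted p = 7.30e-08). The replicates of *Cxcl2* in WT-tFCI differed little, unlike those of *Cxcl1*.

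*Cxcl10* went from 26.4, 37.8 and 34.9 CPM in WT-Sham to 251.0, 397 and 385 CPM in WT-tFCI, with no overlap. Its log2 fold change was 3.37 (SE 0.18, edgeR adjusted p = 5.96e-09). *Cxcl9*, the other CXCR3 ligand, stayed near the limit of detection with 2 to 4 counts in WT-Sham and 4 to 14 in WT-tFCI, and its log2 fold change of 1.60 had a 95% interval from -0.31 to 3.50 (edgeR adjusted p = 0.173). At this depth no change of *Cxcl9* was detectable.

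*Cxcl16* was the most abundant ligand of WT-Sham and the one with the smallest called change, from 99.0, 91.9 and 94.6 CPM to 289, 304 and 283 CPM. The log2 fold change was 1.62 (SE 0.13, edgeR adjusted p = 2.29e-07). *Cxcl12* had 0.481, 0.224 and 1.23 CPM in WT-Sham and 41.3, 5.08 and 5.12 CPM in WT-tFCI. Replicate 1 of WT-tFCI was far above the other libraries of its group, and the log2 difference was 5.85 within batch 1 and 2.69 within batch 2 (4.19 over all libraries, SE 0.55, edgeR adjusted p = 3.70e-05). *Cxcl14*, a ligand without an agreed signalling receptor, rose from 0.120, 0.224 and 0.513 CPM to 4.55, 4.96 and 4.87 CPM (log2 fold change 3.96, SE 0.63, edgeR adjusted p = 2.16e-04). *Cxcl13* had 4, 0 and 0 counts in WT-Sham and 19, 9 and 3 counts in WT-tFCI.

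In miKO-tFCI vs. WT-tFCI, which asks how HDAC3-deficient microglia differ after stroke, the ligands went in different directions. *Cxcl1* and *Cxcl12* were higher, *Cxcl10* was lower, and *Cxcl2*, *Cxcl9*, *Cxcl14* and *Cxcl16* were not called. Thus 3 of 7 were called where 8.79% of all genes were (4.08% higher, 4.71% lower), and the groups did not overlap for 2 of 7 (22.9% of all genes). The median over the 7 ligands was 0.13, against 0.04 over all genes.

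*Cxcl10* fell to 57.7, 48.0 and 52.9 CPM in miKO-tFCI and all 3 libraries lay below every WT-tFCI library. The log2 fold change was -2.67 (SE 0.17, edgeR adjusted p = 4.84e-07), or 6.37-fold lower. In this comparison 99.7% of all genes had a higher log2 fold change. The microglial marker sums of miKO-tFCI (9916 to 19868 CPM) overlapped those of WT-tFCI (18696 to 20969 CPM) only between batches. Within each batch every miKO-tFCI library had the lower sum. Of the 10 markers 4 were called lower, against 4.71% of all genes. Among them was *Cx3cr1*, of which the miKO mice lack 1 copy. The part of the share of microglia in the level of *Cxcl10* was not tested. *Art3*, which overlaps *Cxcl10* on the other strand, held 0.344 to 0.352 counts per *Cxcl10* count in WT-tFCI and 0.361 to 0.410 in miKO-tFCI, and reads in the shared stretch cannot be told apart without strand.

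*Cxcl1* rose to 116.7, 65.1 and 65.3 CPM in miKO-tFCI, above all WT-tFCI libraries (log2 fold change 1.77, SE 0.33, edgeR adjusted p = 0.00349). Batch 1 alone gave 1.31 and batch 2 alone 2.06, and replicate 1 was the highest library of both groups. Without the batch term its edgeR adjusted p was 0.0662, at a log2 fold change of 1.67. *Cxcl2* had 165.9, 94.9 and 101.1 CPM in miKO-tFCI, and replicate 1 lay among the WT-tFCI values. Its log2 fold change of -0.42 had a 95% interval from -0.86 to 0.01 (edgeR adjusted p = 0.206), and in the libraries of batch 2 alone it was -0.72 and called (edgeR adjusted p = 0.0186).

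*Cxcl12* reached 97.1, 19.7 and 25.7 CPM in miKO-tFCI. Its groups overlapped, since WT-tFCI replicate 1 lay above replicates 2 and 3 of miKO-tFCI, but within each batch miKO-tFCI was the higher, by 1.23 in batch 1 and 2.09 in batch 2. The fit with batch gave 1.71 (SE 0.36, edgeR adjusted p = 0.00880), and this call was lost in 5 of 19 alternatives, with BH-adjusted p values of 0.0564 to 0.318 in edgeR or DESeq2. They were the fits by DESeq2 (0.0575), without the batch term (0.318), and without WT-tFCI replicate 2 (0.0564), WT-tFCI replicate 3 (0.0582) or miKO-tFCI replicate 1 (0.0608). *Cxcl16* stood at 302, 335 and 322 CPM in miKO-tFCI. *Zmynd15*, which shares exon bases with *Cxcl16* on the other strand, held 0.164 to 0.182 counts per *Cxcl16* count in WT-tFCI and 0.220 to 0.244 in miKO-tFCI without overlap, and reads in that stretch carry the same doubt. The *Cxcl16* groups overlapped, and the 95% interval of its log2 fold change of 0.13 ran from -0.13 to 0.39. *Cxcl14* had 10.2, 3.39 and 3.71 CPM, with 1.13 within batch 1 and -0.45 within batch 2, and *Cxcl9* had 16, 5 and 0 counts.

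**Figure D2:**
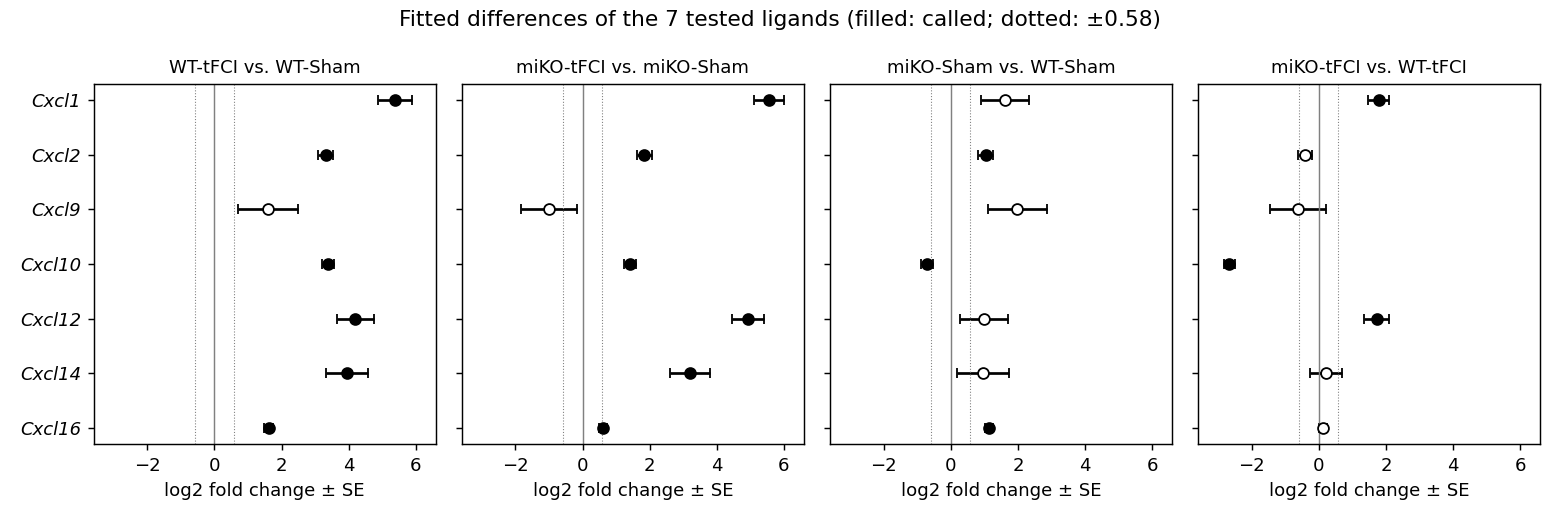
Fitted log2 fold change with its SE for the 7 tested ligands in 4 comparisons; filled points were called and dotted lines mark 0.58 and -0.58. After tFCI 6 ligands are filled and to the right in each genotype, with *Cxcl9* open, to the right in WT and to the left in miKO, whereas in miKO-tFCI vs. WT-tFCI *Cxcl10* lies at -2.67 and *Cxcl1* at 1.77.

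The genotypes also differed without stroke. In miKO-Sham vs. WT-Sham 2 of 7 were higher (*Cxcl2* and *Cxcl16*) and 1 was lower (*Cxcl10*), where 15.4% of all genes were called, 8.58% higher and 6.8% lower. The groups did not overlap for 4 of 7 ligands, against 33.2% of all genes. *Cxcl16* stood at 236, 205 and 191 CPM in miKO-Sham, all above WT-Sham, a log2 fold change of 1.15 (SE 0.12, edgeR adjusted p = 1.38e-05). *Cxcl2* had 27.6, 30.0 and 39.8 CPM, also without overlap (log2 fold change 1.05, SE 0.22, edgeR adjusted p = 0.00424). Batch 1 alone gave 0.30 and batch 2 alone 1.38.

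*Cxcl10* had 18.9, 22.3 and 18.7 CPM in miKO-Sham and was lower than in WT-Sham in every pair of libraries (log2 fold change -0.72, SE 0.17, edgeR adjusted p = 0.00930). Without WT-Sham replicate 2 the edgeR adjusted p was 0.0518. *Cxcl1* had 0.833, 0.555 and 3.46 CPM in miKO-Sham and was not called (edgeR adjusted p = 0.139). Its replicate 3, with 27 counts against 6 and 4, set that mean, and without that library the log2 fold change was 0.099. The call was made in 3 of 18 alternatives, namely with no filter on low counts (edgeR adjusted p = 0.00318), in batch 2 alone (0.0476) and without replicate 1 of miKO-Sham (0.0195). *Cxcl9* had 10, 10 and 13 counts against 4, 2 and 4 in WT-Sham. The groups did not overlap, but the edgeR adjusted p was 0.141. *Cxcl12* had 17, 8 and 7 counts in miKO-Sham and was not called, but was without WT-Sham replicate 3 (log2 fold change 2.42, edgeR adjusted p = 0.0181). *Cxcl14* had 2, 4 and 7 counts and *Cxcl13* 1, 3 and 2 counts there.

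In miKO microglia tFCI raised the same 6 ligands that it raised in WT, 6 of 7 where 35.8% of all genes were called, 21.9% as higher and 13.9% as lower. The groups did not overlap for 6 of 7, against 48.2% of all genes. The folds were 47.0 for *Cxcl1*, 30.4 for *Cxcl12*, 9.26 for *Cxcl14*, 3.59 for *Cxcl2*, 2.67 for *Cxcl10* and 1.52 for *Cxcl16*. The values for WT were 41.9, 18.3, 15.5, 9.92, 10.4 and 3.07 in the same order. The log2 fold change of *Cxcl16* (0.60) lay just above the threshold of 0.58, and it was 0.53 to 0.58 and no longer called in 10 of 20 alternatives, namely with no filter on low counts and without any 1 of the WT-Sham or WT-tFCI libraries, miKO-Sham replicate 3 or miKO-tFCI replicates 2 or 3. These comparisons share libraries with those above.

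The effect of genotype differed between the surgeries for 3 of 7 ligands (interaction term), each in the negative direction, where 3.82% of all genes were called, 1.25% as higher and 2.57% as lower. For *Cxcl10* the interaction was -1.96 on the log2 scale (SE 0.24, edgeR adjusted p = 4.15e-04), from a difference of -0.72 in Sham and -2.67 after tFCI. For *Cxcl2* it was -1.47 (SE 0.30, edgeR adjusted p = 0.0142), from differences of 1.05 in Sham and -0.42 after tFCI. For *Cxcl16* it was -1.02 (SE 0.17, edgeR adjusted p = 0.00436). The *Cxcl2* interaction was not called without the batch term (edgeR adjusted p = 0.0727) or without WT-Sham replicate 2 (0.0538), WT-Sham replicate 3 (0.0640) or WT-tFCI replicate 2 (0.0573). The libraries of batch 1 gave -0.25 and those of batch 2 gave -2.05. For *Cxcl1* and *Cxcl12* the interaction was 0.17 and 0.73, with 95% intervals from -1.89 to 2.23 and from -1.08 to 2.54.

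Per kilobase of exon, which allows levels of different genes to be compared, *Cxcl16* led in WT-Sham with 31.5 ± 1.20 CPM per kb (SD, n = 3), followed by *Cxcl10* with 14.7 ± 2.61 and *Cxcl2* with 7.87 ± 2.62 (SD, n = 3 each). The ranges of these 3 did not overlap, whereas the other 5, all at 0.302 CPM per kb or less on average, overlapped with their neighbours in the order. In WT-tFCI *Cxcl10* led with 153 ± 36.1 CPM per kb, before *Cxcl16* with 96.6 ± 3.71, *Cxcl2* with 76.2 ± 5.17 and *Cxcl1* with 13.8 ± 9.67 (SD, n = 3 each), with no overlap between neighbours. In miKO-tFCI *Cxcl16* led again with 105.8 ± 5.57 CPM per kb. *Cxcl2* (58.3 ± 19.0) and *Cxcl1* (43.9 ± 15.9) followed with overlapping ranges, and *Cxcl10* came next with 23.5 ± 2.16 CPM per kb (SD, n = 3 each). With the length of the longest coding transcript, *Cxcl1* and *Cxcl2* changed places in miKO-tFCI. In miKO-Sham the order was *Cxcl16* (69.8 ± 7.53), *Cxcl2* (15.7 ± 3.13) and *Cxcl10* (8.87 ± 0.910), again in CPM per kb with no overlap (SD, n = 3 each). *Cxcl13* reached at most 1.98 CPM per kb in any library, and *Cxcl9* at most 0.552.

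Ratios of counts within a library do not depend on scaling between libraries. *Cxcl10* had 5.36, 24.3 and 26.6 counts for each count of *Cxcl1* in WT-tFCI and 0.495, 0.737 and 0.811 in miKO-tFCI. The ratio was thus above 1 in every library of WT-tFCI and below 1 in every library of miKO-tFCI. The ratio of *Cxcl2* to its neighbour *Cxcl1* was 3.41, 10.2 and 10.1 in WT-tFCI and 1.42, 1.46 and 1.55 in miKO-tFCI, also with no overlap. The ratio of *Cxcl10* to *Cxcl16* was 0.869, 1.31 and 1.36 in WT-tFCI and 0.191, 0.143 and 0.164 in miKO-tFCI. In Sham it was 0.267, 0.411 and 0.369 in WT and 0.0800, 0.109 and 0.0977 in miKO, so that it was lower in miKO under both surgeries. No test was run on the ratios.

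**Figure D3:**
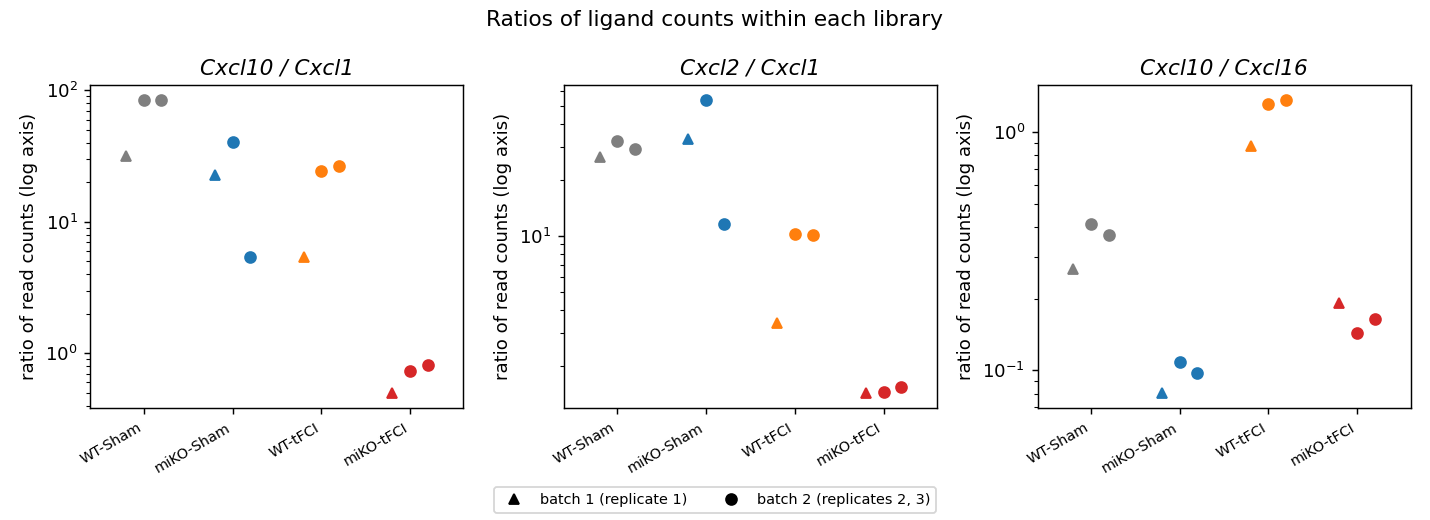
Ratio of read counts of ligand pairs within each library, on a log axis, by group; triangles are batch 1 and circles batch 2. For *Cxcl10* to *Cxcl1* the WT-tFCI libraries lie at 5.36 to 26.6 and those of miKO-tFCI at 0.495 to 0.811.

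*Cxcl10* made up 31.6%, 44.3% and 45.9% of the summed CPM of the 8 ligands in WT-tFCI and 7.67%, 8.46% and 9.26% in miKO-tFCI. *Cxcl1* made up 5.89%, 1.83% and 1.73% in WT-tFCI and 15.5%, 11.5% and 11.4% in miKO-tFCI. All 8 ligands together reached 795, 898 and 839.9 CPM in WT-tFCI, and each miKO-tFCI library held less, at 752, 567 and 571 CPM. Summed over the CXCR3 ligands (*Cxcl9*, *Cxcl10* and *Cxcl11*) the level was 252 to 400.2 CPM in WT-tFCI against 48.9 to 59.6 CPM in miKO-tFCI. Summed over the CXCR2 ligands *Cxcl1*, *Cxcl2*, *Cxcl3* and *Cxcl5* it was 162 to 209 CPM and 168 to 292 CPM, which overlapped.

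Of 7 further CXC ligands, 3 passed the filter. *Cxcl3*, another CXCR2 ligand, had 18, 3 and 14 counts in WT-tFCI and 77, 56 and 91 counts in miKO-tFCI (log2 fold change 2.67, SE 0.59, edgeR adjusted p = 0.0109). Its groups did not overlap. *Pf4*, known from platelets and border macrophages, had 49.4, 42.4 and 40.5 CPM in WT-tFCI against 123, 84.0 and 68.1 CPM in miKO-tFCI, with a log2 fold change of 1.04 that was not called (edgeR adjusted p = 0.0588). *Cxcl17* had 12 to 16 counts in WT-Sham and 0 to 7 in WT-tFCI and was called lower. *Cxcl5* had 3, 0 and 1 counts in WT-tFCI and 17, 4 and 8 in miKO-tFCI, *Cxcl11* 4, 9 and 7 against 2, 2 and 0, and neither was tested.

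Of 8 receptors of CXC ligands, 7 passed the filter. In miKO-tFCI vs. WT-tFCI 2 of them were called, both higher, against 4.08% of all genes. *Cxcr2*, the receptor of CXCL1 and CXCL2 on neutrophils, had 5, 9 and 9 counts in WT-tFCI and 157, 29 and 48 in miKO-tFCI (log2 fold change 2.99, SE 0.61, edgeR adjusted p = 0.00680). *Ackr1*, a decoy receptor of venular endothelium and red cells, had 93, 53 and 19 counts in WT-tFCI and 474, 131 and 92 in miKO-tFCI (log2 fold change 1.87, SE 0.35, edgeR adjusted p = 0.00525). In WT-Sham it had 0 counts in all libraries. Beside these receptors, the 8 neutrophil markers (led by *S100a8* and *S100a9*) summed to 148 to 212 CPM in WT-tFCI against 671 to 971 CPM in miKO-tFCI. In miKO-Sham they summed to 336 to 367 CPM, with 2 counts of *Cxcr2* in each library. Replicate 1 of miKO-tFCI had the most *Cxcr2* and the lowest neutrophil sum, at 671 CPM against 963 and 971 CPM. The single markers went both ways there. In replicates 1, 2 and 3 *S100a8* had 264, 333 and 298 CPM and *S100a9* 204, 273 and 246 CPM. *Retnlg* had 28.1, 10.9 and 4.82 CPM and *Mmp8* 9.81, 7.92 and 9.15 CPM, both highest in replicate 1. The part of neutrophils in the level of *Cxcr2* was not tested. The 8 monocyte and macrophage markers (led by *Chil3* and *Ms4a4c*) summed to 75.8 to 219 CPM in WT-tFCI and 307 to 629.9 CPM in miKO-tFCI. *Cxcr4* and *Ackr3*, the receptors of CXCL12, rose after tFCI in WT, by 2.87 and 2.81 on the log2 scale (edgeR adjusted p = 0.00131 and 1.65e-04), and were not called between the tFCI groups. *Cxcr3*, the receptor of CXCL10, had 13, 9 and 31 counts in WT-Sham and 3, 3 and 2 in WT-tFCI and was called lower. *Cxcr5* and *Cxcr6* were not called in any comparison, at 5 to 38 and 0 to 39 counts, and *Cxcr1* was not tested.

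Genes of other cell types moved with *Cxcl12* and *Cxcl1*. The 6 fibroblast and mural cell markers, led by *Dcn* and *Col1a2*, summed to 2.40 to 5.23 CPM in WT-Sham, where *Rgs5* was at 0, and to 12.1 to 12.6 CPM in miKO-Sham. In WT-tFCI they summed to 837, 187 and 181 CPM, and in miKO-tFCI to 1707, 447 and 539 CPM. Replicate 1 was highest in both tFCI groups, as it was for *Cxcl12* and *Cxcl1*. For each 100 CPM of these markers, *Cxcl12* had 4.93, 2.72 and 2.83 CPM in WT-tFCI against 5.69, 4.41 and 4.77 CPM in miKO-tFCI, which overlapped. *Cxcl1* had 5.59, 8.79 and 8.01 CPM per 100 CPM in WT-tFCI against 6.83, 14.6 and 12.1 CPM in miKO-tFCI, which also overlapped. Both overlaps were between batches, and within each batch every miKO-tFCI library had the higher ratio for both ligands. Endothelial markers (led by *Cldn5* and *Pecam1*) summed to 41.7 to 131 CPM in WT-tFCI against 72.7 to 197 CPM in miKO-tFCI. The part of these cells in the levels of *Cxcl12* and *Cxcl1* was not tested.

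**Figure D4:**
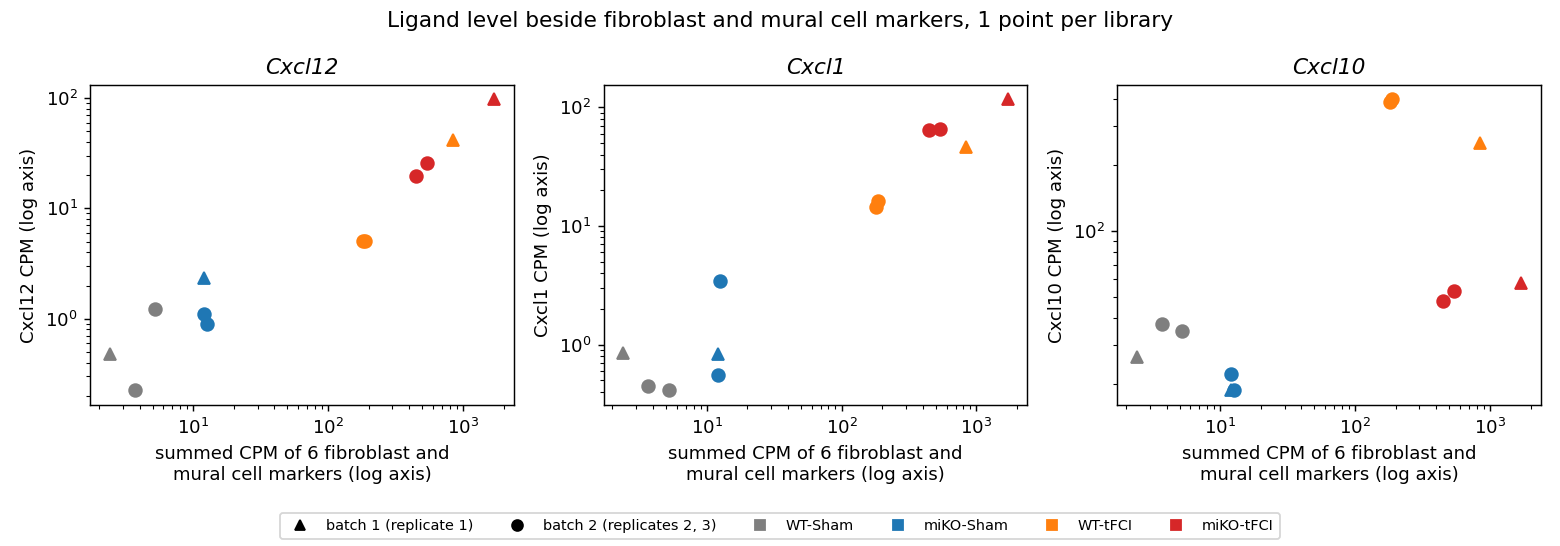
CPM of *Cxcl12*, *Cxcl1* and *Cxcl10* against the summed CPM of 6 fibroblast and mural cell markers, 1 point per library, log axes; colours are groups, triangles batch 1 and circles batch 2. For *Cxcl12* and *Cxcl1* the tFCI library with the highest marker sum (1707 CPM) is also the highest in the ligand, while for *Cxcl10* the WT-tFCI and miKO-tFCI libraries form separate levels.

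Regulators and companion genes of the ligands were described by lists. NF-kB drives transcription of *Cxcl1*, *Cxcl2* and *Cxcl10*. Of 15 tested NF-kB subunits and targets, 10 were lower in miKO-tFCI than in WT-tFCI, where 4.71% of all genes were lower. Their median was -0.69, against 0.04 over all genes. The called members with the largest change were *Nfkbiz* (-1.23), *Tnfaip3* (-1.21) and *Il1a* (-1.07 on the log2 scale, edgeR adjusted p = 8.58e-04, 0.00214 and 0.00209). After tFCI in WT, 6 of 15 rose where 20.9% of all genes did, most of all *Ptgs2* (3.94), *Il1b* (3.61) and *Tnf* (2.90 on the log2 scale). Between the tFCI groups *Cxcl10* was lower in miKO, *Cxcl1* was higher and *Cxcl2* was not called. The part of NF-kB in the levels of these ligands was not tested.

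Of 16 interferon-inducible genes tested, 12 rose and 1 fell after tFCI in WT, with *Rsad2* (3.87), *Oasl2* (3.10) and *Irf7* (2.82 on the log2 scale) first, where 20.9% of all genes rose. In miKO-tFCI vs. WT-tFCI only *Gbp5* among these 16 was called, 1 of 16 where 4.71% of all genes were lower (log2 fold change -1.45, edgeR adjusted p = 0.0242), and the median was 0.03. In miKO-Sham vs. WT-Sham, where *Cxcl10* was lower, 8 of the 16 were higher and 1 was lower. Of all genes 8.58% were higher and 6.8% lower there, and the median of the 16 was 0.53. *Ifnb1*, which encodes interferon beta, had 33, 19 and 26 counts in WT-tFCI and 1, 8 and 12 in miKO-tFCI, but was not called (log2 fold change -1.95, edgeR adjusted p = 0.0873). *Ifng* was not tested, and among the receptors *Ifngr1* fell after tFCI in WT (log2 fold change -1.16).

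Genes that control chemokine RNA decay included *Zc3h12a* and *Zfp36*, whose products target inflammatory transcripts such as *Cxcl1* for degradation. Both were lower in miKO-tFCI than in WT-tFCI, by log2 fold changes of -1.35 (edgeR adjusted p = 2.97e-04) and -0.81 (edgeR adjusted p = 0.00471), 2 of 5 genes tested where 4.71% of all genes were lower. After tFCI in WT *Zc3h12a* rose (0.74) and *Zfp36* (-1.09) and *Zfp36l2* (-0.70 on the log2 scale) fell. The part of these genes in the levels of *Cxcl1* and the other ligands was not tested. Among proteases that process CXC ligands, *Mmp2* was higher in miKO-tFCI (log2 fold change 1.08, edgeR adjusted p = 0.00307) and *Mmp9* rose after tFCI in WT (3.26 on the log2 scale). The products of *Adam10* and *Adam17* shed CXCL16. *Adam10* was lower in miKO-Sham than in WT-Sham, where *Cxcl16* was higher (log2 fold change of *Adam10* -0.73, SE 0.23, edgeR adjusted p = 0.0389), and it was not called between the tFCI groups, while *Adam17* was not called in any comparison.

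**Figure D5:**
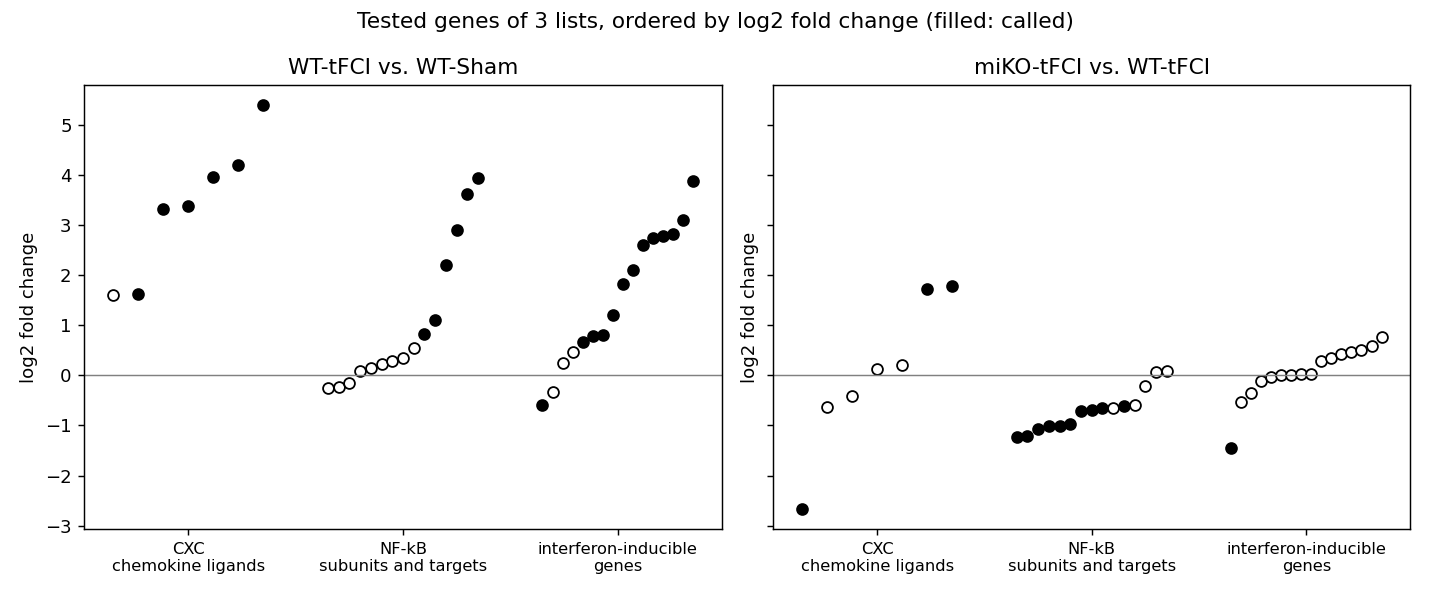
Log2 fold change of the tested ligands, of 15 NF-kB subunits and targets and of 16 interferon-inducible genes, ordered within each list; filled points were called. In miKO-tFCI vs. WT-tFCI 10 NF-kB genes are filled and below 0, against 1 interferon-inducible gene.

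The ligands also differed in their pattern over the 12 libraries, given here as Pearson's r of log2 CPM without a test, since the groups dominate it. *Cxcl1* ran with *Cxcl12* (0.930), *Cxcl14* (0.931) and *Cxcl2* (0.914), and less with *Cxcl10* (0.543). Among 15740 genes with a mean of at least 1 CPM, those most like *Cxcl1* were *Ifit1* (0.989), *Col3a1* (0.988) and *Flrt2* (0.987), and those most like *Cxcl12* were *Cacnb3* (0.99), *Cpe* and *Htra1* (both 0.987). *Cxcl10* was nearest to *Art3* (0.99), its overlapping neighbour, and then to *Hmgb2* (0.968) and *Gadd45b* (0.965). *Cxcl2* was nearest to *Gmnn* (0.983), *Fn1* (0.983) and *Plp2* (0.982), *Cxcl14* to *Atp5a1* (0.988), *Cbx5* (0.975) and *Uba1* (0.975), and *Cxcl16* to *Cyp4f18* (0.99), *Ehd1* (0.988) and *Rab3d* (0.987). *Cxcl9*, with few counts, reached 0.914 with *Gm7480* and 0.874 with *Gm7367*.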

How the data were processed

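RNA-seq was performed on sorted microglia in 12 libraries (SMART-Seq v4 kit, which does not mark strand). The authors aligned the reads and deposited raw counts per gene without normalization. The submitters' processing notes name FastQC 0.11.9, Trim Galore, HISAT2 2.2.1, SAMtools, HTSeq 1.99.2 and the builds mm10 and GRCm38.p6. The setting for strand is not given in the sources used here. Symbols and coordinates came from GENCODE M21 (GRCm38). Lines for reads on no gene (45.3% to 52.5% of the counted reads) were left out.

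Testing used edgeR 4.0.16 under R 4.3.3. The filter filterByExpr kept 16451 genes, library sizes were scaled with TMM factors of 0.864 to 1.11, and the quasi-likelihood test was run on 1 fit of the 12 libraries whose terms were group and batch, with Benjamini-Hochberg adjustment over all genes. DESeq2 1.42.0 served as an alternative. Standard errors were derived from the F statistic and are rough for genes with few counts, and p-values measure the spread between these pooled libraries. Log2 CPM used a prior count of 2. No fold was given where every library of a group had at most 3 counts. The steps were tested on simulated data.

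The members and lists were chosen with earlier results of these data known. The named genes were the 8 ligands, *Hdac3*, tested CXC ligands and receptors, up to 3 called genes of each other list in miKO-tFCI vs. WT-tFCI and in WT-tFCI vs. WT-Sham with the largest change, the 3 genes most like each ligand, and the 2 most abundant markers of the lists discussed. *Cxcl5*, *Cxcl11*, *Ifnb1* where not called, *Ifng*, *Adam17*, *Adam10*, *Cxcr1*, the overlapping genes *Art3* and *Zmynd15*, and markers at 0 were named after their values were seen. So were *Cx3cr1*, *Retnlg* and *Mmp8* as markers. *Isg15*, *Mx1*, *Rc3h1*, *Xcr1* and *Aqp4* were listed but not analysed here, and 2 genes that the naming rule selects are not reported here.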

Additional observations from a re-analysis of the deposited data

Results flagged for a closer look

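For 3 ligands the effect of genotype differed between Sham and tFCI in the test of the interaction itself (edgeR, Benjamini-Hochberg adjustment). The log2 interaction was -1.96 for *Cxcl10*, with a genotype difference of -0.72 in Sham and -2.67 after tFCI, -1.47 for *Cxcl2*, with 1.05 and -0.42, and -1.02 for *Cxcl16*, with 1.15 and 0.13. Within batch 1 and batch 2 the interaction was -1.64 and -2.13 for *Cxcl10*, -0.25 and -2.05 for *Cxcl2*, and -1.19 and -0.92 for *Cxcl16*.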

How the results depend on the processing

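Up to 20 alternatives were run for each result. When each library was left out in turn, the ligands called numbered 6 to 7 in WT-tFCI vs. WT-Sham, 2 to 3 in miKO-tFCI vs. WT-tFCI, 2 to 4 in miKO-Sham vs. WT-Sham, 5 to 6 in miKO-tFCI vs. miKO-Sham and 2 to 3 for the interaction. With at least 10 counts in every library 3 ligands could be tested, and 3, 1 and 3 were called in the first, the second and the fourth of these. With no batch term 1 was called in miKO-tFCI vs. WT-tFCI. The calls and log2 fold changes of *Cxcl10* and *Cxcl16* in that comparison kept their direction and side of the threshold in all 20 alternatives.

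Over all genes, the count for miKO-tFCI vs. WT-tFCI (1446) was 2193 with no filter (1200 higher, 993 lower), 701 with no batch term, 2535 with only the groups compared (1542 higher, 993 lower), and 616 to 1667 when a library was left out. That of miKO-tFCI vs. miKO-Sham was 3744 with at least 10 counts in every library. The interaction (629) gave 971 by DESeq2, 1272 with no filter, 303 with no batch term and 281 to 883 when a library was left out.

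Among values that were not called, the sign turned for *Cxcl14* in miKO-tFCI vs. WT-tFCI in batch 2 alone (-0.51), without WT-tFCI replicate 1 (-0.05) and without miKO-tFCI replicate 1 (-0.67; 0.52 at most when a library was left out), for *Cxcl9* there without miKO-tFCI replicate 3 (0.051, lowest -1.89 when a library was left out and -2.17 in batch 2 alone), for *Cxcl12* in miKO-Sham vs. WT-Sham without WT-Sham replicate 1 (-0.16, highest 2.42), for the interaction of *Cxcl12* without WT-Sham replicate 3 (-0.67, highest 1.91), and for that of *Cxcl1* in batch 2 alone (-0.18) and without miKO-Sham replicate 1 (-0.53) or 2 (-0.13; highest 1.70). The cause was not tested. With the replicate number as a block in place of batch, the same counts of ligands were called (6, 3, 3, 6 and 3) and 1429 genes in miKO-tFCI vs. WT-tFCI. Same-numbered libraries were not treated as pairs, since their deviations correlated above 0.1 in 4, 1 and 6 of 6 pairs for replicates 1, 2 and 3 and not in every pair, although 8 of 12 libraries were closest to their own number. The order of levels kept 6 of 8 places in miKO-Sham, 6 in WT-tFCI and 6 in miKO-tFCI with the longest coding transcript. Depth limits *Cxcl9*, *Cxcl13* and, in Sham, *Cxcl1*, *Cxcl12* and *Cxcl14*.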

Other observations

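The 12 marker lists also held values that belong to no comparison of the ligands. B cell markers, led by *Cd79b* and *Cd79a*, summed to 26.9 to 35.3 CPM in WT-Sham and 4.16 to 13.1 CPM in miKO-Sham, and to 29.0 to 36.5 CPM in WT-tFCI and 7.04 to 17.9 CPM in miKO-tFCI. The dendritic cell markers, led by *Ccr7* and *Flt3*, reached 90.0 CPM in replicate 1 of WT-tFCI and 281 CPM in replicate 1 of miKO-tFCI, against 11.2 to 15.6 CPM and 44.0 to 46.7 CPM in the other libraries of these groups. Border-associated macrophage markers, led by *F13a1* and *Mrc1* and with *Pf4* among them, summed to 141 to 247 CPM in WT-tFCI and 251 to 739 CPM in miKO-tFCI. T and NK cell markers, led by *Nkg7* and *Cd4*, stayed between 1.44 and 9.81 CPM in all libraries, with *Cd3e* at 0 in WT-Sham and WT-tFCI, *Klrb1c* also in WT-Sham, and *Cd8a* and *Klrb1c* at 0 in miKO-tFCI. Astrocyte markers (*Slc1a3*, *Gfap*) summed to 109 to 549.8 CPM, oligodendrocyte markers (*Mbp*, *Mag*) to 71.0 to 155 CPM and neuronal markers (*Rbfox3*, *Camk2a*) to 2.87 to 17.2 CPM. Genes within a sum went in opposite directions. Mean *Slc1a3* was 180, 111 and 67.1 CPM in WT-Sham, WT-tFCI and miKO-tFCI, and mean *Gfap* was 0.326, 46.3 and 142 CPM. Mean *Mag* was 55.8 CPM in WT-Sham and 36.1 CPM in WT-tFCI, against 26.5 and 47.4 CPM for *Mbp*.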
